A study of Homo sapiens with 6 samples.

Results

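The replication-dependent histone genes described here are the genes that carry a HIST1, HIST2, HIST3 or HIST4 symbol in the deposited expression tables. Of 23204 gene symbols, 70 matched this name pattern. A symbol was kept as a member when its row reached 1 RPKM (reads per kilobase of gene length and per 1000000 reads of the library) or more in at least 1 of the 6 libraries, and 21 symbols did so. Members were 1 of 6 linker histone H1 genes, 6 of 17 H2A genes, 7 of 20 H2B genes, 3 of 13 H3 genes and 4 of 14 H4 genes. The name, and not the response to any treatment, chose them, but a gene that is high in a single library can enter through that library alone.

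All libraries came from HEK293T, a transformed human embryonic kidney cell line, and each group held 1 library, so no difference below has a replicate check and no p-value is given. Control siRNA or DDX3X siRNA was applied for 48 h in 2 libraries, for which the labels name no sort. The other 4 came from cells transfected for 32 h with 5 µg of plasmid and sorted for GFP-positive cells: GFP alone, GFP-DDX3X WT, GFP-DDX3X T275M and GFP-DDX3X G302V, called GFP, WT, T275M and G302V here. A legend of the study names another variant in place of T275M for these libraries, and T275M is named here by its label alone. DDX3X is a DEAD-box RNA helicase, T275M and G302V are missense variants of it associated with medulloblastoma, and endogenous DDX3X was left in place in the plasmid arms. The siRNA and plasmid arms differ in transfection, time and sorting at once, and these cannot be told apart.

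Replication-dependent histone genes supply the proteins that package newly copied DNA. H2A, H2B, H3 and H4 form the core of the nucleosome and H1 binds the DNA between nucleosomes. The genes sit in clusters and mostly lack introns, and their mRNAs usually end in a conserved stem-loop, bound by the protein SLBP, in place of a poly(A) tail. The library kit used here selects RNA with poly(A) tails in its standard protocol, so the levels below are those of the histone RNA that such a library captured.

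The stem-loop is the sequence that sets these mRNAs apart from other mRNAs and was read from the GRCh37 genome at GENCODE transcripts of the members. The stem-loop pattern (GG, any 2 bases, CTT, any base, T, any base, AG, any 2 bases, CC), searched on the transcript strand within the last 100 bases, was present in 20 of 20 members with a coding transcript. It was present in 71 of 19807 protein-coding genes in all (0.358%), of which 65 were histone genes by name. The loops below belong to the members with the highest mean RPKM of their class and to 3 further H4 genes, with the 16-base pattern in capitals. The 4 H4 loops carry a different stem from the others shown, and that HIST2H4B and HIST1H4K also share a different loop from HIST1H4H and HIST1H4J.
HIST1H1C, chr6:26055972-26055987, minus strand: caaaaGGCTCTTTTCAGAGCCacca
HIST3H2A, chr1:228645070-228645085, minus strand: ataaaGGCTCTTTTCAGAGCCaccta
HIST1H2BK, chr6:27114145-27114160, minus strand: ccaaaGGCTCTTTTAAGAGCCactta
HIST1H3E, chr6:26225824-26225839, plus strand: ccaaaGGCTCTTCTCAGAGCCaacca
HIST2H4B, chr1:149832335-149832350, minus strand: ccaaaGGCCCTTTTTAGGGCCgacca
HIST1H4K, chr6:27798956-27798971, minus strand: caaaaGGCCCTTTTTAGGGCCccca
HIST1H4H, chr6:26285359-26285374, minus strand: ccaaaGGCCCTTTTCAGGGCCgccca
HIST1H4J, chr6:27792237-27792252, plus strand: taaaaGGCCCTTTTCAGGGCCaccct
The coordinates give the capitals. Across all histone symbols with a match, the form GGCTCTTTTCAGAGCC of HIST1H1C and HIST3H2A was the most frequent, at 37 loci, whereas the form of HIST2H4B was present at 4.

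Whole reads could be recovered from the RPKM values, which gave 43720000 to 67520000 reads in 5 libraries and 180870000 in the DDX3X siRNA library. DDX3X itself was at 107 RPKM with control siRNA and 31.3 with DDX3X siRNA, and at 119, 2894, 3279 and 1906 RPKM with GFP, WT, T275M and G302V, so knockdown and overexpression followed the labels. These levels do not show which variant a library holds. The labels call the cells neuronal. Of 10 neuronal markers read, STMN2 and MAP2 lay at or below 0.086 RPKM in every library. By contrast, the neurofilament genes NEFL and NEFM lay between 109 and 683 RPKM. The rest lay between 0.0721 RPKM, for SNAP25 with control siRNA, and 9.28 RPKM, for TUBB3 in G302V. Intervals below are 95% intervals for counting error only. Reads carried no molecular identifiers, and the spread between cultures was not measured.

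Histone mRNAs were a small part of every library and a single H2B gene, HIST1H2BK, gave more reads than any other member. The 70 symbols together took 49.9 reads per 1000000 reads of the library (RPM) in GFP (interval 48.1 to 51.8), 93.0 in WT (90.7 to 95.4), 63.8 in T275M (61.6 to 66.1), 44.2 in G302V (42.3 to 46.3), 55.6 with control siRNA (53.8 to 57.4) and 58.3 with DDX3X siRNA (57.2 to 59.4). WT was the highest library and G302V the lowest. HIST1H2BK supplied between 42.4% of histone reads, in WT, and 53.9%, with control siRNA. By contrast, H3 genes gave 3.22% to 5.37% of histone reads, and H4 genes gave 4.79% with DDX3X siRNA, 6.24% in GFP, 7.45% in G302V, 12.1% in T275M and 17.2% in WT. In bulk RNA, fewer cells in S phase and less histone RNA per cell cannot be told apart.

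**Figure D1:**
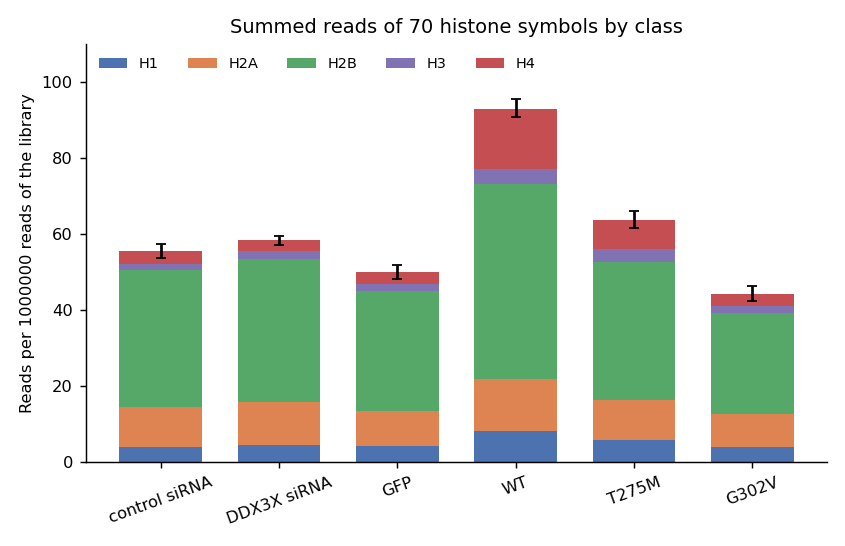
Summed reads of the 70 histone symbols, in RPM (vertical axis, from 0), stacked by histone class, with the 95% counting interval of the sum as a bar. WT reached 93.0 and the H4 layer was 15.96 in WT, 7.70 in T275M and between 2.79 and 3.36 in the other 4 libraries.

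Per length, 4 of the 21 members reached 10 RPKM in a library. HIST1H2BK, an H2B gene, was at 30.3 RPKM in GFP, 47.0 in WT, 33.9 in T275M, 24.9 in G302V, 35.7 with control siRNA and 36.7 with DDX3X siRNA. It stood above all other members in every library. HIST2H4B was the next highest in WT, at 16.3 RPKM, although it held only 2.16 RPKM with DDX3X siRNA. HIST3H2A, an H2A gene, lay between 7.93 and 10.5 RPKM, and HIST1H1C, which encodes linker histone H1.2, lay between 5.00 and 10.2. The other 17 members had maxima of 1.06 to 5.66 RPKM. In all, 8 members were at 1 RPKM or more in every library, whereas 5 reached it in WT alone (HIST1H2AG, HIST1H2BO, HIST1H4H, HIST1H4J and HIST2H3A) and HIST1H2AI reached it in T275M alone. The highest library was WT for 19 members, T275M for HIST1H2AI and DDX3X siRNA for HIST3H2A. Members that reached 1 RPKM in a single library had to be highest there, and the share of all genes highest in WT was not computed, so this count carries no weight alone.

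**Figure D2:**
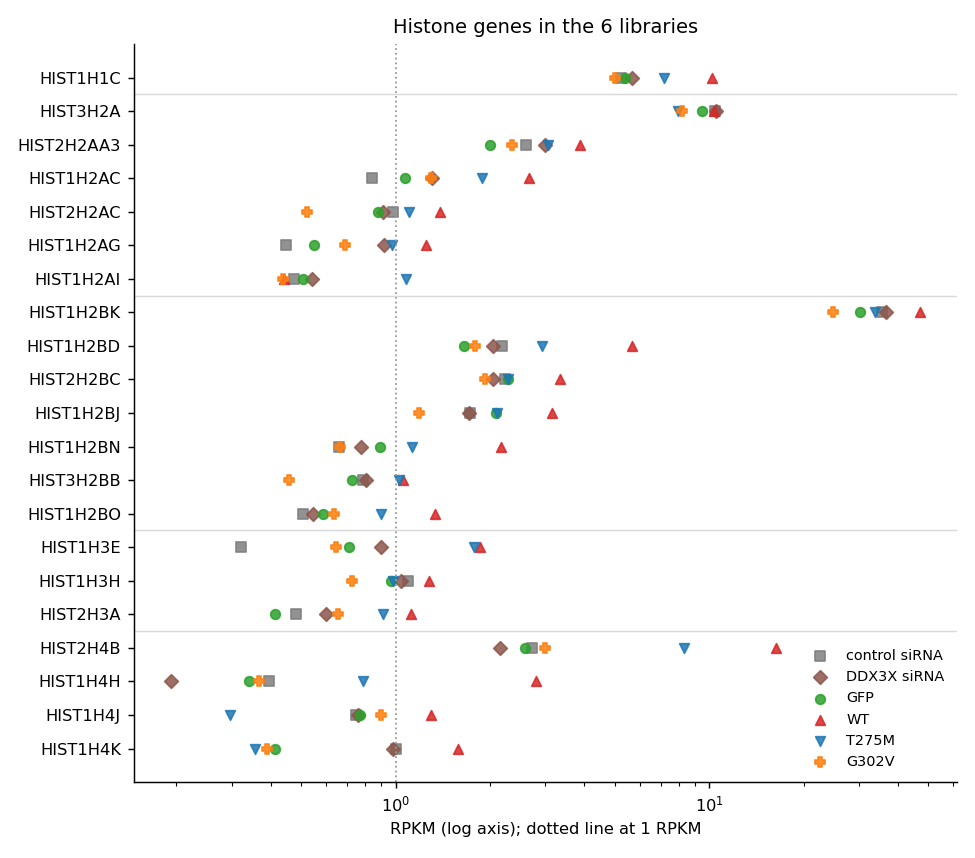
RPKM (log axis) of the 21 histone genes in the 6 libraries, 1 point per library, grouped from H1 at the top to H4 at the bottom, with a dotted line at 1 RPKM. The WT point lies farthest right in 19 genes, 5 of which were kept through WT alone, and the widest spread is in HIST2H4B and HIST1H4H.

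The main question was whether raising or lowering DDX3X moved histone mRNA levels. Expression of WT was accompanied by more histone RNA than GFP alone: summed over all 70 symbols the ratio was 1.86 (interval 1.78 to 1.95). Because members that were high in WT alone could enter through WT, the sum was also taken over the 49 symbols that are not members, and it was 8.11 RPM in WT against 4.30 in GFP (ratio 1.89, interval 1.61 to 2.21). Without HIST1H2BK and HIST2H4B the ratio over the other symbols was 1.81 (1.69 to 1.94). All 5 classes were higher in WT: H4 by 5.12 times (4.35 to 6.05), H3 by 2.20 times (1.73 to 2.81), H1 by 1.99 times (1.70 to 2.34), H2B by 1.62 times (1.52 to 1.71) and H2A by 1.49 times (1.33 to 1.66). The H4 sum thus differed most. Without HIST2H4B the remaining 13 H4 symbols were 2.85 times higher (2.11 to 3.88), on 192 reads against 59. That interval overlaps those of H3 and H1, and HIST1H4H alone gave 66 of the 192 reads and 7 of the 59.

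Gene by gene, differences are given as log2 ratios of RPKM plus a pseudocount of 1, which understates the change of low genes, and a gene entered a comparison with 1 RPKM and 10 reads or more in either library. In WT against GFP 20 members entered, with a median of 0.60, against 0.05 over the 12915 genes that entered. Past 2-fold were 3 members, against 0.248% of all genes. Higher by 1.5-fold or more were 10 members, against 1.97% of all genes, and the interval lay above 0 in 15 members, against 41.1% of all genes. As 11 of the 20 were below 1 RPKM in GFP, entered through WT and so had to be higher there, these counts carry no weight alone, and the 10 members at 1 RPKM or more with control siRNA, a library outside this comparison, were read separately, a choice made after seeing the data. All 10 of them were higher in WT, against 8017 of 12915 genes, with a median of 0.66, and 8 had an interval above 0.

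HIST2H4B had the largest log2 ratio of WT to GFP at a pseudocount of 1, whereas without a pseudocount HIST1H4H, with far fewer reads, was higher, at 8.24 times against 6.32 times. It had 112 reads in GFP, 809 in WT, 312 in T275M, 104 in G302V, 146 with control siRNA and 309 with DDX3X siRNA, or 2.58, 16.3, 8.28, 3.004, 2.73 and 2.16 RPKM. WT was high, T275M intermediate and the other 4 libraries close to one another. The log2 ratio of WT to GFP was 2.27 (2.05 to 2.49). Its row has an uncertain identity, since it lists the position of HIST2H4A, chr1:149804221-149804616, with the strand of HIST2H4B, whose annotated exon is chr1:149832330-149832725. The row length of 792 bases is 2 times the 396-base exon, and the exons of these copies were identical over all 396 bases. Reads of HIST2H4A and HIST2H4B therefore cannot be separated, and the row describes the pair.

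The other H4 genes were much lower. HIST1H4H, in the HIST1 cluster at chr6:26285354-26285727, had 7 reads in GFP, 66 in WT, 14 in T275M, 6 in G302V, 10 with control siRNA and 13 with DDX3X siRNA, or 0.341, 2.81, 0.787, 0.367, 0.396 and 0.192 RPKM. Again WT stood above the rest, here with all other libraries under 1 RPKM, and its log2 ratio to GFP was 1.51 (1.08 to 1.81). The longest stretch its coding sequence shares with HIST2H4A is 20 bases, shorter than the 21-base limit for trimmed reads, and the coding sequences were 83.2% identical. HIST1H4K was at 0.412 RPKM in GFP, 1.58 in WT, 0.356 in T275M, 0.388 in G302V, 1.00 with control siRNA and 0.984 with DDX3X siRNA. Here the siRNA libraries lay between WT and the other sorted libraries. HIST1H4J was at 0.768, 1.30, 0.295, 0.8996, 0.749 and 0.761 RPKM in the same order, so that T275M was the lowest. The log2 ratios of WT to GFP were 0.87 (0.40 to 1.23) for HIST1H4K and 0.38 (-0.10 to 0.81) for HIST1H4J, and the latter was not detectable at this depth. The coding sequences of these 2 genes are identical over 309 bases, so how their reads were split is uncertain.

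Among H2B genes, HIST1H2BD differed most. It was at 1.65 RPKM in GFP, 5.66 in WT, 2.94 in T275M, 1.78 in G302V, 2.19 with control siRNA and 2.04 with DDX3X siRNA. WT was again alone at the top with T275M next, and the log2 ratio of WT to GFP was 1.33 (0.99 to 1.66). A second row of this gene, of 813 bases, gave 4.29 RPKM in WT and 1.19 in GFP. HIST1H2BK, the most abundant member, differed by a smaller but precisely counted 0.61 (0.52 to 0.71) on the log2 scale, on 2473 reads against 1396. Its row of 839 bases is longer than the 389-base exon it lists, chr6:27106072-27106460, and the transcript with the stem-loop lies elsewhere, at the position given above. HIST1H2BN, HIST1H2BO, HIST1H2BJ and HIST2H2BC had log2 ratios of 0.74, 0.56, 0.43 and 0.40, each with an interval above 0. HIST2H2BC is listed with a noncoding accession and is annotated as a pseudogene. HIST3H2BB had a ratio of 0.25 (-0.16 to 0.64).

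HIST1H1C, the only H1 member, was at 5.38 RPKM in GFP, 10.2 in WT, 7.18 in T275M, 5.00 in G302V, 5.24 with control siRNA and 5.67 with DDX3X siRNA. WT was the highest and T275M the next, and the remaining libraries lay close together. Its log2 ratio of WT to GFP was 0.81 (0.61 to 1.02).

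The H2A genes were uneven. HIST1H2AC was at 1.07 RPKM in GFP, 2.66 in WT, 1.89 in T275M, 1.30 in G302V, 0.841 with control siRNA and 1.31 with DDX3X siRNA. HIST2H2AA3 was at 1.997, 3.87, 3.07, 2.36, 2.61 and 2.99 RPKM in the same order. In both, WT was highest, with log2 ratios to GFP of 0.82 (0.46 to 1.16) and 0.70 (0.47 to 0.93). HIST3H2A, the most abundant H2A gene, was at 9.48 RPKM in GFP and 10.4 in WT, a log2 ratio of 0.12 (-0.10 to 0.34) that was not detectable. HIST2H2AC gave 0.35 (-0.08 to 0.74). HIST1H2AI, with 13 reads in each of GFP and WT, did not reach the minimum in this comparison.

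Of the H3 genes, HIST1H3E was at 0.710 RPKM in GFP, 1.86 in WT, 1.78 in T275M, 0.644 in G302V, 0.321 with control siRNA and 0.898 with DDX3X siRNA. WT and T275M were both high and differed by less than the counting error. The log2 ratio of WT to GFP was 0.74 (0.34 to 1.10) for HIST1H3E, 0.58 (0.32 to 0.81) for HIST2H3A and 0.22 (-0.19 to 0.60) for HIST1H3H, the last not detectable. The row of HIST2H3A, at 1014 bases, is 2 times its listed exon, and so is the row of HIST2H2AA3, at 1068 bases, as for HIST2H4B.

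**Figure D3:**
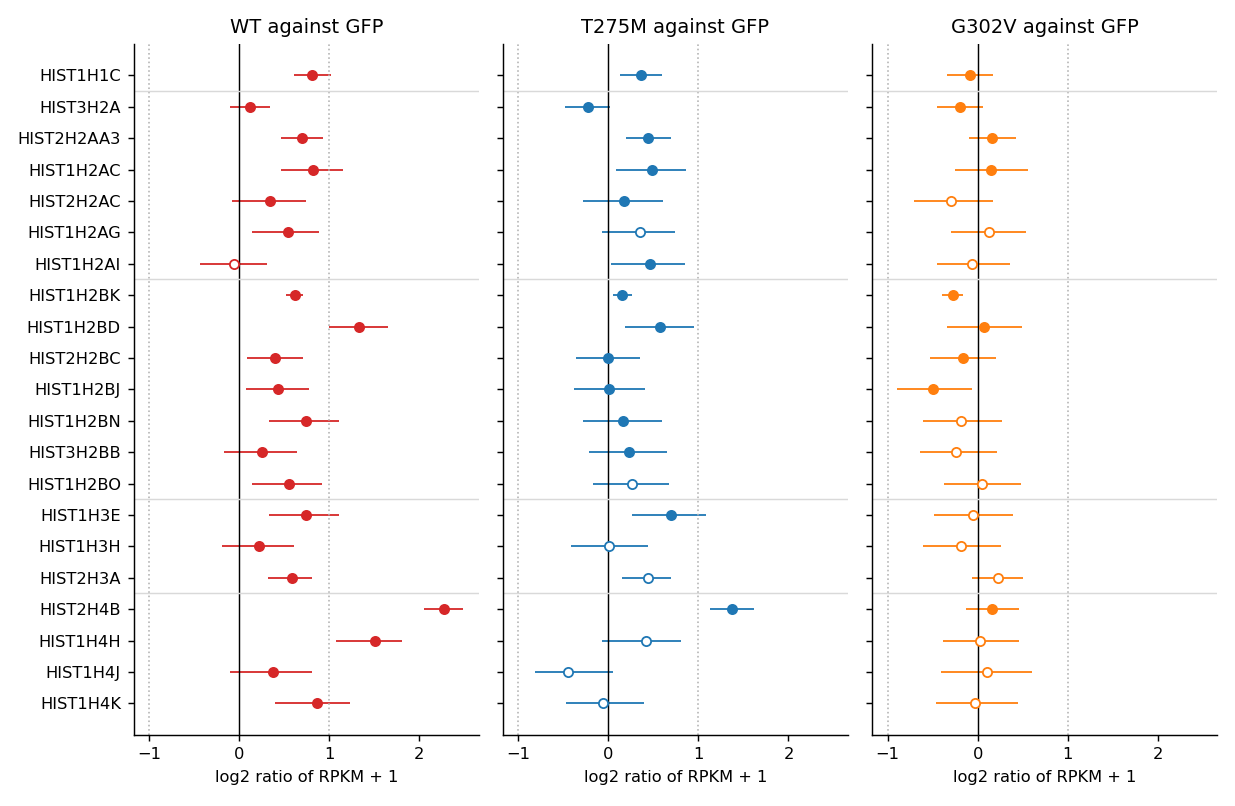
Log2 ratio of RPKM plus 1 against GFP (horizontal axis) for each of the 21 members with WT, T275M and G302V, with 95% counting intervals. Filled points entered the comparison, open points were under the minimum, and dotted lines mark 2-fold: 3 genes lie beyond it with WT, 1 with T275M and none with G302V. The panels share the GFP library.

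T275M showed a smaller difference from GFP. Over all 70 symbols the ratio was 1.28 (1.21 to 1.35), and over the 49 other symbols it was 1.38 (1.16 to 1.65). H4 was 2.47 times higher (2.05 to 2.98) and H3 1.94 times (1.498 to 2.52), while H2A, at 1.13 times (0.999 to 1.28), was at the limit of counting error. Unlike with WT, the H4 difference came from a single row: without HIST2H4B the other H4 symbols were at a ratio of 1.06 (0.716 to 1.55). The median over the 14 members that entered was 0.29, against 0.07 over 12912 genes. Past 2-fold was 1 member, HIST2H4B at 1.38 (1.13 to 1.62), against 0.372% of all genes. Higher by 1.5-fold or more were 2 members, HIST2H4B and HIST1H3E, against 2.25% of all genes. The interval lay above 0 in 8 members, against 44.2% of all genes, but 5 of the 14 entered through T275M. HIST3H2A was at 7.93 RPKM in T275M against 9.48 in GFP, a log2 ratio of -0.23 (-0.48 to 0.02). The median of the 8 members that entered and were at 1 RPKM with control siRNA was 0.26. Of these 8, 6 were higher, against 8037 of 12912 genes, and 5 were higher with median-ratio scaling.

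G302V was slightly below GFP and not above it. The ratio over all 70 symbols was 0.886 (0.835 to 0.939), and without HIST1H2BK it was 0.955 (0.879 to 1.04). H2B was lower, at 0.833 times (0.772 to 0.898), while H1, H2A, H3 and H4 had intervals that included 1. H4 was at 1.06 times (0.841 to 1.33), on 144 reads against 171. The median over the 9 members that entered was -0.09, against 0.03 over 12775 genes. No member that entered was past 2-fold, against 0.305% of all genes, and none was past 1.5-fold in either direction, against 1.77% of all genes. HIST1H2BK, at -0.28 (-0.39 to -0.16), and HIST1H2BJ, at -0.49 (-0.90 to -0.06), were the members whose interval lay below 0. HIST2H4B was at 0.16 (-0.13 to 0.45).

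Direct comparison of the variants with WT, which share the WT library, gave the size of each shortfall. In T275M the sum over 70 symbols was 0.686 times that in WT (0.656 to 0.717), and in G302V 0.476 times (0.452 to 0.501). In T275M the H4 class was at 0.482 times WT (0.427 to 0.544), but H3 was at 0.881 times (0.718 to 1.08), within counting error. In G302V the H4 class was at 0.206 times WT (0.172 to 0.246), the lowest of the 5 classes, and H2A was at 0.642 times (0.568 to 0.725), the highest. DDX3X itself was at 3279 RPKM in T275M and 1906 in G302V, against 2894 in WT, and whether its level bears on these values was not tested.

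For T275M against WT 21 members entered, with a median of -0.35 against 0.00 over 12973 genes. Past 2-fold was 1 member, HIST1H4H at -1.09 (-1.49 to -0.63), against 0.0771% of all genes. Lower by 1.5-fold or more were 5 members, against 0.262% of all genes: all 4 H4 members, with HIST1H4K at -0.93, HIST2H4B at -0.90 and HIST1H4J at -0.83, and HIST1H2BD at -0.76. The interval lay below 0 in 12 members, against 20.5% of all genes, and 7 of the 21 entered through WT. HIST1H2AI went the other way, at 0.53 (0.11 to 0.89), on 24 reads in T275M against 13 in WT. HIST1H3E was at -0.04 (-0.44 to 0.36) and HIST3H2BB at -0.02 (-0.44 to 0.41). All 10 members chosen on the control siRNA library were lower in T275M, against 6301 of 12973 genes, with a median of -0.44.

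For G302V against WT 20 members entered, with a median of -0.66 against -0.03 over 12967 genes. The 3 members past 2-fold, against 0.185% of all genes, were HIST2H4B at -2.11 (-2.34 to -1.88), HIST1H4H at -1.48 (-1.80 to -1.01) and HIST1H2BD at -1.26 (-1.61 to -0.89). Lower by 1.5-fold or more were 11 members, against 1.45% of all genes, HIST1H1C at -0.90 and HIST1H2BK at -0.89 among them. The interval lay below 0 in 17 members, against 35.8% of all genes, and the exceptions were HIST1H2AG, HIST1H3H and HIST1H4J. Through WT entered 11 of the 20. All 10 members chosen on the control siRNA library were lower in G302V, against 7438 of 12967 genes, with a median of -0.89. HIST3H2A had a log2 ratio of -0.31 (-0.56 to -0.07), among the smallest.

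Depletion of DDX3X left summed histone RNA nearly level. Over all 70 symbols the ratio of DDX3X siRNA to control siRNA was 1.05 (1.01 to 1.09), and over the 49 other symbols it was 1.21 (1.06 to 1.39). The H4 class was lower, at 0.830 times (0.709 to 0.976), and H1, H2A, H2B and H3 had intervals that included 1. The median over the 11 members that entered was -0.01, against -0.02 over 12694 genes, and its sign turned with the scaling (0.04 under median-ratio scaling). No member that entered was past 2-fold, against 0.11% of all genes, and none past 1.5-fold, against 2% of all genes. Among members under the minimum, HIST1H3E had 0.898 against 0.321 RPKM (75 against 10 reads). HIST1H2AG had 0.922 against 0.446 (83 against 15 reads), and both intervals lay above 0. HIST1H4H was lower, at 0.192 against 0.396 RPKM, with an interval that included 0. HIST2H4B was at -0.24 (-0.45 to -0.03) and HIST1H2AC at 0.33 (0.03 to 0.60). HIST1H2BK was counted most deeply, with 5574 reads against 2021, and its log2 ratio was 0.04 (-0.03 to 0.11).

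Between the reference libraries, GFP against control siRNA, the sum over 70 symbols was at 0.899 times (0.855 to 0.944). This gives the size of a difference between libraries whose DDX3X levels were close, at 119 and 107 RPKM, although they differ in sorting, time and transfection. The median over 11 members was -0.09, against 0.01 over 12730 genes. No member that entered was past 2-fold, against 0.503% of all genes, or past 1.5-fold, against 2.33% of all genes. HIST1H4K was at -0.51 (-0.88 to -0.04), HIST2H2AA3 at -0.27 (-0.50 to -0.03) and HIST1H2BK at -0.23 (-0.32 to -0.13), whereas HIST2H4B was at -0.06 (-0.33 to 0.21).

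The cluster sums differed as well. In humans the large HIST1 cluster lies on chromosome 6 and HIST2 and HIST3 lie on chromosome 1. Members were 14 of 56 HIST1 symbols, 5 of 10 HIST2 symbols, 2 of 3 HIST3 symbols and 0 of 1 HIST4 symbol. In WT against GFP the HIST2 sum was 3.04 times higher (2.73 to 3.39), HIST1 1.71 times (1.62 to 1.81) and HIST3 1.12 times (0.953 to 1.31), the last not detectable. Single genes weighed on these sums: HIST2H4B gave 809 of the 1478 HIST2 reads in WT and 112 of the 425 in GFP. HIST3H2A gave 323 of the 353 HIST3 reads in WT. By the median log2 ratio of members that entered, some of them through WT, HIST1 was above HIST2, at 0.74 against 0.58. As single genes, the HIST3 members HIST3H2A and HIST3H2BB each had an interval that included 0. The HIST4 gene had 12 reads in WT and 0 in GFP, where a count of 0 allows up to 3 reads, or 0.0547 RPM.

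Most H2A and H2B genes lie head to head and start from a shared stretch of DNA, so that a neighbouring pair can be compared. Among histone symbols with a protein-coding GENCODE transcript, 10 H2A and H2B pairs were divergent with a gap of 193 to 250 bases between their starts. At least 1 member was in 8 of these pairs. Symbols without such a transcript, the member HIST2H2BC among them, were not paired, so divergent pairs that include them were not counted. Of these 10 pairs, only 2 held members on both sides. HIST1H2AG and HIST1H2BJ were at 1.25 and 3.15 RPKM in WT against 0.549 and 2.08 in GFP. HIST3H2A and HIST3H2BB were at 10.4 and 1.06 RPKM in WT against 9.48 and 0.726 in GFP. Both pairs were uneven, the first toward H2B and the second toward H2A. The widest imbalance was between HIST1H2BK, at 47.0 RPKM in WT, and its partner HIST1H2AH, at 0.363, and HIST1H2AH was at 0.415 RPKM in GFP. With 10 reads of HIST1H2AH in each library, a difference of the size seen for HIST1H2BK was not detectable. The HIST1H2BK row is longer than the exon it lists, as given above, whereas the HIST1H2AH row spans a single exon, so these rows are unlike. HIST1H2AC and HIST1H2BC also parted, at 2.66 and 0.728 RPKM in WT against 1.07 and 0.957 in GFP.

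The gaps of 3 pairs are shown from GRCh37, plus strand, because they hold the start sites of the most abundant H2B and H2A members and of the pair with members on both sides. Capitals mark the octamer ATTTGCAT, the binding motif of POU2F1, on either strand.
HIST1H2BK and HIST1H2AH, chr6:27114635-27114884: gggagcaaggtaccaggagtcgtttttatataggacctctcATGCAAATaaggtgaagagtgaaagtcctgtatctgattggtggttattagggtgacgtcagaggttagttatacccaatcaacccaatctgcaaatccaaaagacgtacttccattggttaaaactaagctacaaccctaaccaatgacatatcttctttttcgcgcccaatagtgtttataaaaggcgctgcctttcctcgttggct
HIST1H2BJ and HIST1H2AG, chr6:27100575-27100821: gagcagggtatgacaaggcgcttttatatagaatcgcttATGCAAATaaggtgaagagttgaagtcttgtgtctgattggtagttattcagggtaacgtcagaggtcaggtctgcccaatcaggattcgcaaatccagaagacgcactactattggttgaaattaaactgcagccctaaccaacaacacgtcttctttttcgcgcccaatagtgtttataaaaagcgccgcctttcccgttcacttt
HIST3H2A and HIST3H2BB, chr1:228645575-228645803: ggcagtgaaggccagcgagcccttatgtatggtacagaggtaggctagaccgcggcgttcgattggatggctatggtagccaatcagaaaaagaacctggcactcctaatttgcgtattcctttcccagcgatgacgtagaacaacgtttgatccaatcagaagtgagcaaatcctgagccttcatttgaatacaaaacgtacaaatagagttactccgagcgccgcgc
The octamer was in 7 of the 10 gaps. The HIST1 gaps shown each hold it near the H2B side, while the HIST3 gap does not hold these letters.

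Promoters from RefSeq (GRCh38.p14, 250 bases before to 50 after each start) were found for 20 of 21 members and 62 of 70 symbols, and were searched on both strands for ATTTGCAT, TATAAA and CCAAT, counted separately where they overlapped. The octamer was in 6 of 20 member promoters, 3 of H2A and 3 of H2B genes, and in 41.9% of the promoters of all histone symbols, against 1.80% of 27305 promoters. TATAAA was in 14 of 20 member promoters against 12.0% of all. CCAAT was in 16 of 20 against 35.7% of all, and the 4 member promoters without it were those of the 4 H4 genes. The promoter of the most abundant H4 row is shown because it had the largest log2 ratio at a pseudocount of 1. It holds none of the 3 motifs, and the 300-base promoters of its copies HIST2H4A and HIST2H4B were identical.
HIST2H4A, chr1:149832407-149832656 (GRCh38.p14), plus strand: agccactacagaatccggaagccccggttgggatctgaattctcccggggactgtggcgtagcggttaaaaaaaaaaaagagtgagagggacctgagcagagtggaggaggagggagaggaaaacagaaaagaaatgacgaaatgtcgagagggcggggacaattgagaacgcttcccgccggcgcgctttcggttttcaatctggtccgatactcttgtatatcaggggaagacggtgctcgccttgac
A match or its absence describes letters only, and no binding was measured.

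Genes that make and process histone mRNA were near their GFP level in WT. Of 22 such genes listed, 21 had a row and entered. Their median log2 ratio of WT to GFP was 0.02 and none was past 1.5-fold. SLBP, which binds the stem-loop, was at 72.9 RPKM in GFP, 75.7 in WT, 70.9 in T275M, 66.4 in G302V, 66.6 with control siRNA and 53.8 with DDX3X siRNA. It was lowest with DDX3X siRNA. NPAT, the coactivator of histone transcription, had a log2 ratio of 0.08 in WT against GFP, and POU2F1, the octamer-binding factor, one of 0.04. ZNF473, a component that joins the stem-loop complex to the U7 particle, was at 0.25.

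S-phase genes were also read, since histone mRNA accumulates in S phase. The median of 20 such genes was 0.00 in WT against GFP, with 10 higher and 10 lower and none past 1.5-fold. Among them PCNA, the sliding clamp of DNA polymerase, was at 0.14 and MCM2, a subunit of the replicative helicase, at -0.09. In T275M 16 of 20 were below GFP, with a median of -0.13, against 4875 of 12912 genes below. The interval lay below 0 in 15 of the 20, against 3025 of 12912 genes. Summed histone RNA was 1.28 times that in GFP. In G302V all 20 were below GFP, with a median of -0.22, against 5775 of 12775 genes below. Every interval lay below 0, against 3360 of 12775 genes. With DDX3X siRNA 18 of 20 were lower than control siRNA, against 6914 of 12694 genes. The S-phase median was -0.32, although the histone median was -0.01. E2F1, at 0.66, and CCNE1, at 0.13, were the exceptions there. Whether these shifts have a part in the histone values was not tested.

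Histone genes listed as replication-independent are mostly expressed outside S phase with ordinary polyadenylated mRNAs. Of these 12 variants only H1F0 was past 1.5-fold in WT against GFP, against 286 of 12915 genes. The median of the 12 was -0.01, with 6 higher and 6 lower, against 8017 of 12915 genes higher. The interval lay above 0 in 4 variants, against 5307 of all genes, and below 0 in 3, against 2751. In T275M 10 of 12 were below GFP, with a median of -0.13, against 4875 of 12912 genes below. In G302V 10 of 12 were below GFP, with a median of -0.11, against 5775 of 12775 genes below. With DDX3X siRNA 10 of 12 were below control siRNA, with a median of -0.15, against 6914 of 12694 genes below. H1F0, which encodes linker histone H1.0, was at 82.1 RPKM in GFP, 174 in WT, 161 in T275M, 116 in G302V, 71.6 with control siRNA and 63.8 with DDX3X siRNA. The 3 DDX3X constructs were all above GFP, with log2 ratios of 1.08, 0.96 and 0.50. RNAs that lack a poly(A) tail offered little to compare, because 8 of 13 listed had a row and only RPPH1 and TERC entered in WT against GFP. TERC was at 2.26 RPKM in GFP, 3.43 in WT, 1.35 in T275M, 1.47 in G302V, 0.525 with control siRNA and 0.515 with DDX3X siRNA. Its log2 ratio of WT to GFP was 0.44 (0.08 to 0.79), while that of RPPH1 was 0.52. Between the reference libraries, GFP against control siRNA, the log2 ratio of TERC was larger, at 1.10. Whether the share of RNA without tails differed between libraries was not tested beyond these genes. Other protein-coding genes with a 1-exon row had a median of 0.05, over 289 genes, as all genes did.

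**Figure D4:**
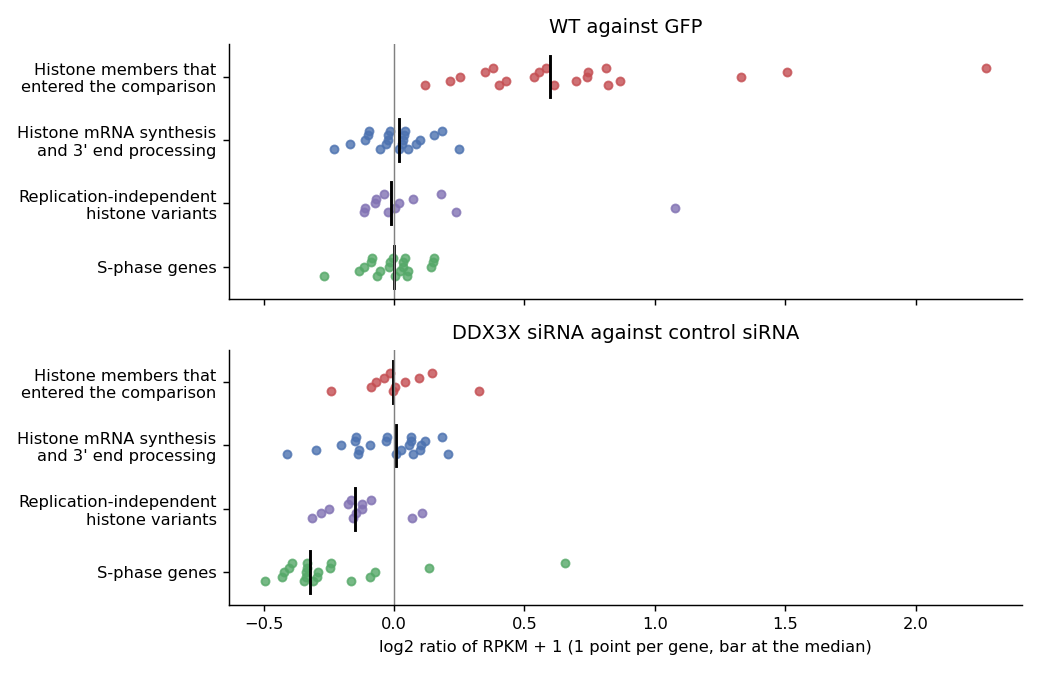
Log2 ratio of RPKM plus 1 for WT against GFP (top) and DDX3X siRNA against control siRNA (bottom), 1 point per gene that entered, with a bar at the median of each list. The histone members lie right of 0 in the top panel, with a median of 0.60, while the 3 other lists plotted centre near 0; 11 of these members entered through WT. In the bottom panel the S-phase genes lie left, at -0.32.

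The 1 RPKM limit falls within a run of similar genes. The member with the lowest maximum was HIST3H2BB, at 1.06 RPKM in WT, and the next symbols below the limit were HIST1H2BC, at 0.957 in GFP, HIST2H2BE, at 0.939 in WT, and HIST1H2AM, at 0.884 in WT. Of the 49 symbols that were not members, 4 had no read in any library and 27 of the other 45 were highest in WT. The share of all genes highest in WT was not computed.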

How the data were processed

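RNA from HEK293T cells was sequenced in 6 libraries, 1 per group. According to the study's methods the authors trimmed adapters with cutadapt, dropped reads shorter than 21 bases, aligned with BWA 0.5.5 to GRCh37 and transcript sequences, kept the best alignment and removed duplicates. The deposited values are RPKM per the file headers (the methods say FPKM), beside a gene length, for 39618 rows. Best-alignment placement makes near-identical histone copies uncertain, and whether strand was counted is not given in the sources used here.

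Whole reads were recovered from the steps of RPKM times length (100% of low rows whole within 0.1 read). The row with the highest mean RPKM stood for a symbol. Differences are log2(RPKM + 1) with 95% counting intervals, a call was 2-fold, and genes entered with 1 RPKM and 10 reads or more in either library. Named were the 4 most abundant genes of each class, every member past 2-fold, the 3 largest changes at 10 RPKM or more in each comparison, HIST2H4B, DDX3X and the extremes of the 4 gene lists, with further members where a count was explained. The members and lists were chosen with earlier results of these data known. The calculations were tested on simulated data and run with Python 3.11.15, numpy 2.4.6, pandas 2.3.3 and scipy 1.17.1.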

Additional observations from a re-analysis of the deposited data

How the results depend on the processing

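No paired analysis was possible because each group holds 1 library, and for the same reason no library could be left out. None of the 8 called member ratios changed sign. Medians near 0 did: that of DDX3X siRNA against control siRNA, -0.01, lay between 0.02 and 0.04 without a filter, with a minimum of 10 RPKM or with median-ratio scaling, and that of G302V against GFP, -0.09, was 0.02 when rows sharing a symbol were summed. The count past 2-fold followed the pseudocount. With 0.1 RPKM it was 10 in WT against GFP, 2 in T275M against GFP, 4 in T275M against WT, 10 in G302V against WT and 1 in GFP against control siRNA. With 10 RPKM, and also with a minimum of 10 RPKM, it was 1, 0, 0 and 1 in the first 4 of these. At 1.5-fold it was 10, 2, 5 and 11. The median was 0.99 at 0.1 RPKM and 0.13 at 10 RPKM in WT against GFP, and -0.16 at 10 RPKM in G302V against WT. At 0.1 RPKM HIST1H4H, at 2.72, passed HIST2H4B, at 2.61, in WT against GFP. HIST2H4B stayed past 2-fold in WT against GFP and in G302V against WT under all 4 alternatives run on single genes, and each of the other 6 called ratios under 3 of 4.

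The following were chosen after seeing the data. Without HIST1H2BK the summed ratio was 2.19 in WT against GFP, 1.44 in T275M against GFP, 0.955 in G302V against GFP, 0.436 in G302V against WT and 0.955 in GFP against control siRNA. Without HIST2H4B it was 1.67 in WT against GFP, 1.20 in T275M against GFP and 0.522 in G302V against WT. Without both it was 0.516 in G302V against WT, 0.956 in GFP against control siRNA and 1.10 in DDX3X siRNA against control siRNA. With median-ratio scaling it was 1.75 in WT against GFP, 1.20 in T275M against GFP and 1.10 in DDX3X siRNA against control siRNA. Members under 20 reads have intervals wide enough that a 1.5-fold difference could go undetected.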
